A study of Homo sapiens with 6 samples.

Results

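6 genes of glucose uptake and its restraint, of the hexokinase family, and of lactate production and export were followed under a fasting medium. The cells were RKO, a human colorectal carcinoma line. They were chosen by name as the rows for SLC2A1, SLC2A3, HKDC1, LDHA, SLC16A3 and TXNIP, and all 6 were found among the 3511 genes of the deposited table. The fasting group (3 samples) had 48 h in medium with 1% fetal bovine serum and 1 g/L glucose, and the control group (3 samples) had medium with 10% fetal bovine serum and 4.5 g/L glucose. The cells are given as wild type in both groups, and RNA came from the whole culture, so that fewer cells with a transcript and less of it per cell cannot be told apart. Serum and glucose were lowered together, so the effect of glucose alone and that of serum alone cannot be told apart. The study's design text also names 5-fluorouracil, oxaliplatin and combined treatments, which were not analysed here.

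Glucose enters most cells through facilitative transporters of the SLC2A family, and SLC2A1 (GLUT1) and SLC2A3 (GLUT3) are its main carriers in many tumour cells. Hexokinases trap the sugar as glucose 6-phosphate, and lactate dehydrogenase A (LDHA) turns the pyruvate made by glycolysis into lactate. The monocarboxylate transporter SLC16A3 (MCT4) then exports that lactate with a proton. TXNIP is an alpha-arrestin that binds thioredoxin and restrains glucose uptake by promoting internalisation of glucose transporters. Its transcription is known to follow cell glucose through MondoA and its partner MLX, which bind a carbohydrate response element in the promoter.

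The 6 libraries held between 4017618 and 5602177 reads in the listed genes, and total depth is unknown because the table lists only genes that the authors had called. Of 29845 genes they tested, 11.8% are listed. In limma, with Benjamini-Hochberg adjustment over all of those genes, 3312 genes passed an adjusted p of 0.05, which is 11.1% of the genes tested and 94.3% of the listed ones. Of these, 1745 were higher in fasting medium (52.7% of the calls, 5.85% of the genes tested and 49.7% of those listed) and 1567 lower (5.25% of the genes tested and 44.6% of those listed). All 6 genes passed, 3 higher and 3 lower, a share near that of the listed genes, since the table was selected by this contrast. When libraries were scaled to the total of the listed genes, 862 were higher (33.5%) and 1708 lower, and log2 changes moved by a median of -0.48. All values below are normalized read counts as deposited, that is, reads divided by a size factor per library, and log2 changes compare means of log2(normalized count + 1), with control subtracted from fasting, so that changes of low genes come out too small. Fasting replicate 3 stood apart from the other fasting libraries by transcript length (Spearman correlation -0.722 over 2886 genes, as a description of the libraries), and values without it are given for some of the genes. The 8 listed genes of a 10-gene stress and RNA quality list were all higher in fasting medium, with a summed level of 64859 to 79082 in fasting libraries and 9013 to 9816 in control libraries. Their part in the results below was not tested. Of 9 colorectal epithelial markers KRT18 alone is listed, with 1959 to 3402 normalized counts in fasting libraries, highest in replicate 3, and 656 to 757 in control libraries (limma, log2 change 1.72, adjusted p = 0.00108). The part of this difference in the results below was not tested. The table cannot show whether the others were expressed, nor can it for the 5 fibroblast and 3 endothelial markers, of which 0 are listed. CD14, the one listed of 4 leukocyte markers, had 7.62 to 8.37 normalized counts in fasting libraries and 0.71 to 0.986 in control libraries, which stand for 6, 8 and 6 reads in fasting medium and 1 read in each control library.

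Both listed glucose transporters rose in fasting medium, SLC2A3 by a larger factor than SLC2A1. SLC2A3 (ENSG00000059804), a transporter of high glucose affinity, had 1221, 1189 and 1159 normalized counts in the fasting libraries, against 303, 318 and 321 in the control libraries. Every fasting library lay far above every control library. The means were 1189.9 ± 31.0 in fasting medium and 314 ± 9.51 in control medium (SD, n = 3 each), a rise of 3.79-fold with a 95% interval of 3.32 to 4.32 (limma, adjusted p = 1.84e-05). SLC2A1 (ENSG00000117394), the widely expressed basal glucose carrier, had 3123, 3087 and 2917 normalized counts in the fasting libraries, against 1781, 1879.8 and 1841 in the control libraries. The groups did not overlap, as was the case for 100% of the listed genes. The means were 3042 ± 110.2 in fasting medium and 1834 ± 49.7 in control medium (SD, n = 3 each). The rise was 1.66-fold (95% interval 1.47 to 1.87; limma, adjusted p = 0.000582). It was among the smaller ones, 1378th in size of the 1764 listed genes above control, where SLC2A3 was 292nd. With scaling to the total of the listed genes the SLC2A1 log2 change was 0.25 (limma, adjusted p = 0.315, against a range of 4.72e-16 to 0.0083 over the other alternatives), and it no longer passed.

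**Figure D1:**
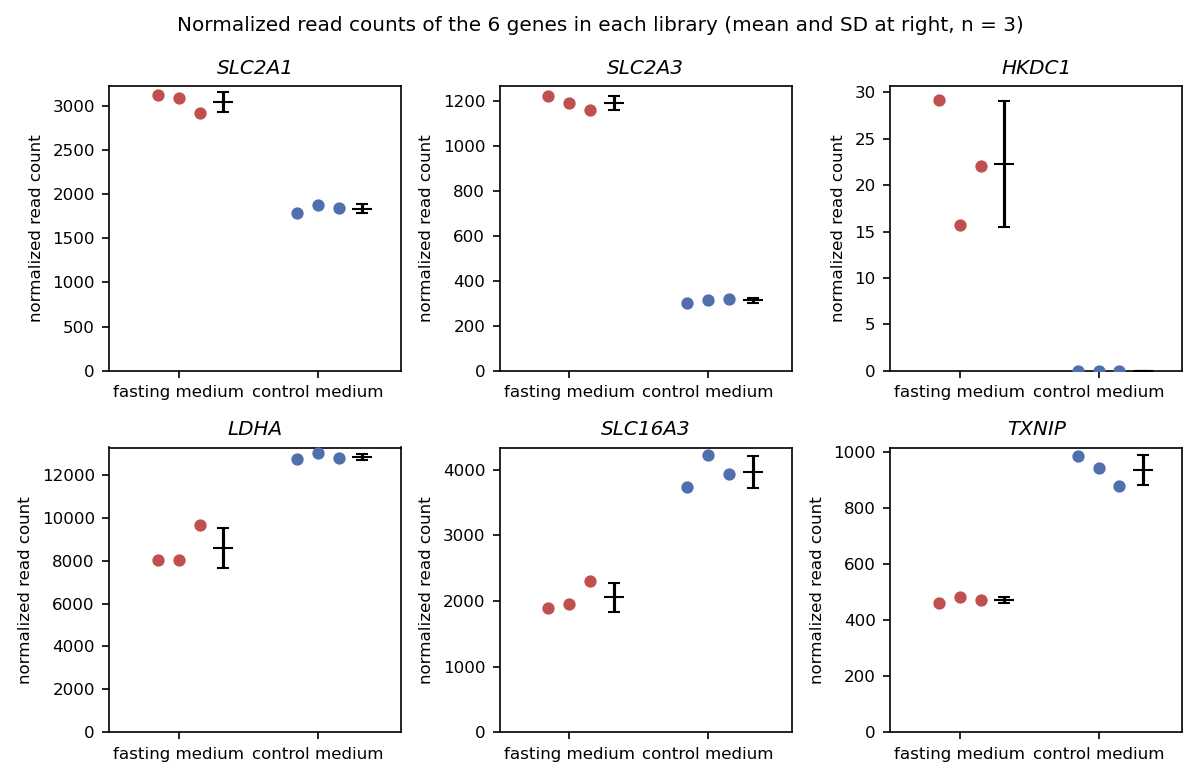
Normalized read count (vertical axes, linear, from 0) of each of the 6 genes in 3 fasting libraries and 3 control libraries, with points for replicates 1 to 3 from left to right and the mean and SD beside them. SLC2A1, SLC2A3 and HKDC1 lie higher in every fasting library than in any control library, and LDHA, SLC16A3 and TXNIP lie lower, with fasting replicate 3 highest of its group for LDHA (9656) and SLC16A3 (2305). Groups lie apart for 100% of the listed genes.

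Per kilobase of transcript, SLC2A1 stayed the more abundant carrier in both media. Its level was 829 ± 30.0 normalized counts per kb in fasting medium and 499.7 ± 13.5 in control medium, and that of SLC2A3 was 304 ± 7.92 in fasting medium and 80.1 ± 2.43 in control medium (SD, n = 3 each). SLC2A3 thus made up 26.8, 26.5 and 27.1% of the summed level of both carriers in the fasting libraries, against 13.7, 13.7 and 14.0% in the control libraries. The summed level was 1133 ± 37.5 per kb in fasting medium and 579.8 ± 15.7 in control medium, a ratio of means of 1.95. The ratio of SLC2A3 to SLC2A1 within a library does not depend on its size factor, and its log2 value was -1.35 ± 0.022 in fasting medium and -2.54 ± 0.023 in control medium. The difference of 1.19 had the smallest p that 3 against 3 libraries can give (exact two-sided permutation test, p = 0.1, and 0.1 after adjustment over the 3 ratios computed). Of the SLC2A3 transcript, 24.1% of all 50-base words also occur in transcripts of other genes, 23.0% in its near-copy SLC2A14, so how reads were divided between the pair is uncertain. Exons of SLC2A1 are overlapped by AC099795.1 on the same strand, which shares 1.74% of its 50-base words, and by SLC2A1-AS1 on the opposite strand. The other 12 of 14 facilitative transporters are not listed.

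HKDC1 (ENSG00000156510), a hexokinase-domain protein described as a further member of the hexokinase family, was read in fasting medium and not in control medium. It had 29.2, 15.7 and 22.0 normalized counts in the fasting libraries, which stand for 23, 15 and 16 reads, against 0 reads in each control library. Even the lowest fasting library lay above all controls, and groups lay apart for 100% of the listed genes. The level of HKDC1 per kilobase was the lowest of the 6 genes. Over the group, 54 reads give 21.9 normalized counts in fasting medium, and 0 reads allow up to 0.79 in control medium, taking 3 reads over the control group as the floor. With the lower 95% limit of the fasting reads (exact Poisson, 16.4 normalized counts), HKDC1 was at least 20.8-fold higher in fasting medium. Limit and floor cover counting error only. The fitted log2 change of 4.50 (limma, adjusted p = 0.000102) depends on the pseudocount, with 1.67 at a pseudocount of 10 and 5.47 at 0.5. Its control libraries, all at 0, show no spread, and it met the filter on the mean only through the fasting group. Its adjusted p is therefore no support for the difference. None of the 50-base words of its transcript occurs in another gene, while an antisense transcript, AL596223.2, overlaps its exons, and the use of strand in counting is not stated in the sources used here. The other 6 genes of the hexokinase list, HK1 and HK2 among them, are not listed.

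Below hexokinase, 2 of 19 glycolytic enzymes looked up are listed and 2 rose, with a median log2 change of 0.58 beside 0.53 over all listed genes. Of all genes tested 11.8% are listed, and 49.7% of the listed genes were higher. ENO2, the neuronal form of enolase, had 2985 ± 149 normalized counts in fasting medium and 2017 ± 78.2 in control medium (SD, n = 3 each), a log2 change of 0.56. GAPDH, the glyceraldehyde 3-phosphate dehydrogenase often used as a reference gene, had 29409, 30131 and 38345 normalized counts in the fasting libraries, against 20619, 21259 and 22161 in the control libraries. Its log2 change was 0.60 (limma, adjusted p = 0.0142), and the call was lost without any 1 control library (adjusted p = 0.056 to 0.0827). Without fasting replicate 3 the log2 change of GAPDH was 0.48. With scaling to the total of the listed genes the log2 changes of ENO2 (0.09) and GAPDH (0.13) no longer passed. GAPDH has many pseudogenes, so its count is uncertain. None of 7 genes that set fructose 2,6-bisphosphate or reverse the phosphofructokinase step is listed.

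The genes for making and exporting lactate fell. SLC16A3 (ENSG00000141526), the lactate exporter of glycolytic cells, had 1900.3, 1959 and 2305 normalized counts in the fasting libraries, against 3743, 4219 and 3941 in the control libraries. The highest fasting library lay under the lowest control library, and groups lay apart for 100% of the listed genes. The SLC16A3 mean of 2055 ± 218 in fasting medium was 51.8% of the 3967 ± 239 in control medium (SD, n = 3 each). The log2 change was -0.95 with a 95% interval of -1.19 to -0.72 (limma, adjusted p = 0.000629). LDHA (ENSG00000134333) had 8028, 8042 and 9656 normalized counts in the fasting libraries, against 12736, 12995 and 12758 in the control libraries. It is the most abundant of the 6 genes per kilobase, at 3549 ± 387 in fasting medium and 5310.3 ± 59.6 in control medium. Its log2 change of -0.59 (95% interval -0.81 to -0.36; limma, adjusted p = 0.00523) was among the smallest falls, 1651st in size of the 1747 listed genes below control. Fasting replicate 3 was 1.20 times the mean of fasting replicates 1 and 2 for LDHA and 1.19 times for SLC16A3, and without it the log2 changes were -0.68 and -1.04. Of the LDHA transcript 10.1% of the 50-base words are shared with other genes, most with the pseudogene LDHAP4. Exons of SLC16A3 are overlapped by CSNK1D on the opposite strand and by MIR6787 on the same strand.

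SLC16A7 (MCT2), a carrier of high affinity for lactate and pyruvate, is the only other gene listed of the 14 for lactate and pyruvate handling. It had 109, 109 and 39.9 normalized counts in the fasting libraries, against 183, 191 and 169 in the control libraries, and did not pass (log2 change -1.20; limma, adjusted p = 0.0945). Without fasting replicate 3 its log2 change was -0.73 and passed (limma, adjusted p = 0.000175, the range over all alternatives being 3.28e-05 to 0.567). With the transcript length trend removed, SLC16A7 was at -0.48 and did not pass (limma, adjusted p = 0.336). LDHB, SLC16A1 and the chaperone BSG, which brings these carriers to the membrane, are not listed.

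The promoters of both fallers are shown because they hold the core letters bound by hypoxia-inducible factors. That of LDHA also holds the E-box bound by MYC, which no SLC16A3 window holds. Both regulators are known to act on glycolytic genes. The sequences are the 250 bases before a RefSeq transcription start, on the GRCh38.p14 build. For LDHA (chr11:18394313-18394562, plus strand) the capitals mark the E-box CACGTG, and for SLC16A3 (chr17:82228792-82229041, plus strand) they mark the hypoxia response core ACGTG.
LDHA: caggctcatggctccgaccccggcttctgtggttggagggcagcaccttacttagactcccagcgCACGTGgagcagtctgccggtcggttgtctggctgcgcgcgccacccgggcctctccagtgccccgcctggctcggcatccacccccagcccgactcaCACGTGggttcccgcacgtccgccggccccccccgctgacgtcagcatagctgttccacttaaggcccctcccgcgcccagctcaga
SLC16A3: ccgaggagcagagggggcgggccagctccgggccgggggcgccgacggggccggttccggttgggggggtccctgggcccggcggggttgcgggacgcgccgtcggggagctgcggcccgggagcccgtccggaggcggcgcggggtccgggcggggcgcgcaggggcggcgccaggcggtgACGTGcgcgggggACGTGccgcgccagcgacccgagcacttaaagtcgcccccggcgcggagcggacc
LDHA holds the E-box at 185 and 87 bases before the start, and 6.34% of 35116 windows of this length hold at least 1. SLC16A3 holds ACGTG at 68 and 55 bases before the start, and 18.5% of windows hold it on one strand or the other. Both strands were searched, and each E-box also contains the shorter core. SLC16A3 has 5 such windows and LDHA 2, and the remaining ones hold neither. The shares above are per window, so a match in any window of such a gene is more common than they show. The SLC2A1 and HKDC1 windows hold neither of these letters, and no SLC2A3 window was in the table used. A match is a description of the letters, and binding was not measured.

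The ratio between a carrier of sugar in and one of lactate out is given for its size only. SLC2A1 rose and SLC16A3 fell, each without overlap, so their ratio had to lie apart between the media. Per kilobase there were 1.97 ± 0.265 SLC2A1 transcripts for each of SLC16A3 in fasting medium and 0.609 ± 0.021 in control medium (SD, n = 3 each). The log2 ratio of SLC2A1 to SLC16A3 was 0.72, 0.66 and 0.34 in the fasting libraries, against -1.07, -1.17 and -1.10 in the control libraries. The sign of the log2 ratio differed between the media. Which carrier is the more abundant rests on the transcript length taken for each, 3670 bases for SLC2A1 and 4830 for SLC16A3. The difference of 1.68 had the smallest p possible here (exact two-sided permutation test, p = 0.1), a value fixed by the separation of both genes. LDHA and SLC16A3 both fell, and their log2 ratio was 2.06 ± 0.021 in fasting medium and 1.69 ± 0.072 in control medium. That difference of 0.37 (exact two-sided permutation test, p = 0.1) changed sign to -0.09 (p = 0.9) after removal of the transcript length trend, so the order of these falls depends on that step.

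**Figure D2:**
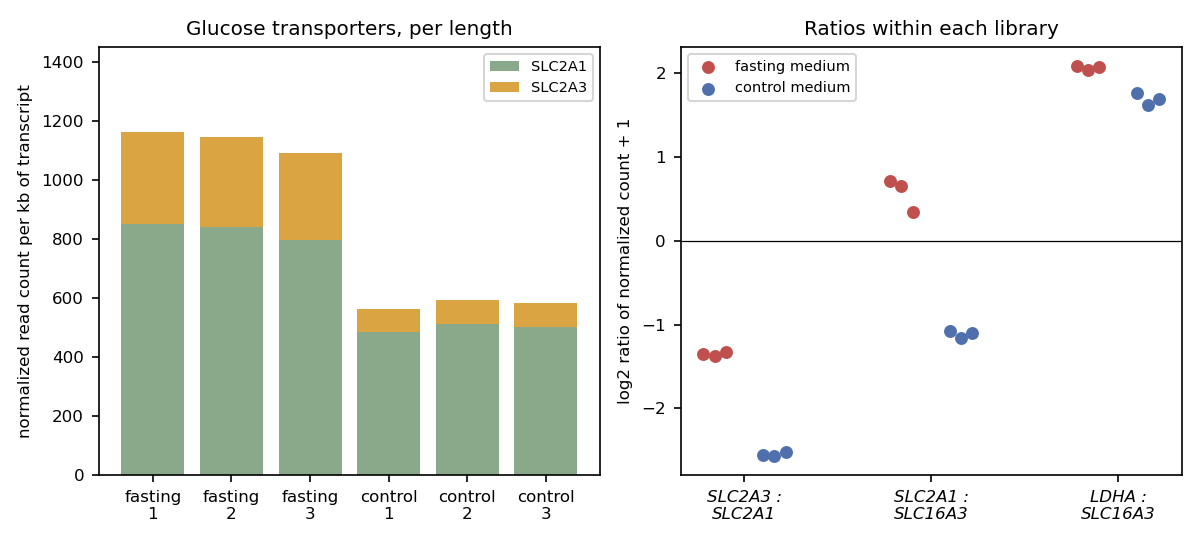
Left, normalized read count per kb of transcript for SLC2A1 and SLC2A3, stacked, in each library. Right, log2 ratios between genes within each library, 3 points for fasting medium and 3 for control medium: the SLC2A1 to SLC16A3 ratio is above 0 in the fasting libraries (0.34 to 0.72) and below 0 in the control libraries (-1.17 to -1.07).

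TXNIP (ENSG00000265972) fell to 50.3% of control. It had 459.5, 482 and 470.3 normalized counts in the fasting libraries, against 985, 941 and 879 in the control libraries. The fasting libraries lay close together, replicate 3 included. All were below the controls, and groups lay apart for 100% of the listed genes. The means were 471 ± 11.3 in fasting medium and 935 ± 53.5 in control medium (SD, n = 3 each), and the log2 change was -0.99 with a 95% interval of -1.19 to -0.79 (limma, adjusted p = 0.000262). ARRDC4, the alpha-arrestin most like TXNIP and a further known MondoA target, fell as well. It had 118, 118 and 99.0 normalized counts in the fasting libraries, against 257, 279 and 237 in the control libraries, a log2 change of -1.20 (limma, adjusted p = 0.000651). Per kilobase TXNIP was 5.90 ± 0.627 times as abundant as ARRDC4 in fasting medium and 5.06 ± 0.331 times in control medium. The other alpha-arrestins, ARRDC1, ARRDC2, ARRDC3 and ARRDC5, are not listed.

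The promoters of this pair are shown because the carbohydrate response element consists of paired E-box-like letters. For TXNIP (chr1:145996580-145996829, minus strand) the capitals mark the spaced repeat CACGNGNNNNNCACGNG, and for ARRDC4 (chr15:97960453-97960702, plus strand) the E-box CACGTG, again over the 250 bases before a RefSeq start on GRCh38.p14.
TXNIP: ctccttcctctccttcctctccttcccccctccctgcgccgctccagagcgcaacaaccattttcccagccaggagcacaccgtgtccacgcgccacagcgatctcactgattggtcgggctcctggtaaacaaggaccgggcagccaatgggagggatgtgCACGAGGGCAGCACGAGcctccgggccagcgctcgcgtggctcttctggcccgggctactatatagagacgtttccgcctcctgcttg
ARRDC4: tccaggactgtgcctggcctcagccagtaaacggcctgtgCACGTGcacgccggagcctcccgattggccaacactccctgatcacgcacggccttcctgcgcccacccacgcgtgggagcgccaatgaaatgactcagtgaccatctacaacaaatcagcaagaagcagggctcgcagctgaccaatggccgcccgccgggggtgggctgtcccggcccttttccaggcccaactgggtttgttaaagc
The TXNIP repeat lies from 88 to 72 bases before the start and reads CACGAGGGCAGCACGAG. Among 35116 windows, 16 hold this spaced repeat on either strand, or 0.0456%. Its letters were chosen with the TXNIP element in view, so its presence there is no test. ARRDC4 holds no copy of the repeat in this window, and its E-box lies 210 bases before the start. A further TXNIP window lacks both the repeat and the E-box. It does hold the hypoxia response core ACGTG (-162 from the start), which the ARRDC4 E-box also contains.

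Among 11 genes of the MondoA, ChREBP, MYC and MAD network 5 are listed, 4 higher and 1 lower in fasting medium. Of all listed genes, 49.7% were higher and 44.6% lower. MLX, the partner that MondoA needs to bind DNA, had 1312 ± 105 normalized counts in fasting medium and 757 ± 25.3 in control medium (SD, n = 3 each). MXD1, a MAX-binding repressor that opposes MYC, rose by 2.02 on the log2 scale, and MXI1, a relative of it, by 1.04. MYC itself rose by 0.59 (limma, adjusted p = 0.00419), while MXD3 had a log2 change of -1.14, a call lost without any one of the other 5 libraries but kept without fasting replicate 3 (lost at adjusted p = 0.0592 to 0.0897). With scaling to the total of the listed genes MLX (0.31) and MYC (0.11) did not pass. MLXIP and MLXIPL, which encode MondoA and ChREBP, are not listed. TXNRD1, which reduces the thioredoxin that TXNIP binds, rose by 2.15 (limma, adjusted p = 2.08e-05), and thioredoxin itself (TXN) is not listed.

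In the hexosamine, pentose phosphate, gluconeogenesis and glycogen lists, the 9 listed genes reported here rose. Beside them, 49.7% of all listed genes were higher, and the median log2 change of all listed genes was 0.53. Nothing particular to these lists is read from the counts. In the hexosamine pathway, which makes the sugar donor for glycosylation, 3 of 8 genes are listed and 3 rose (median log2 change 1.13). GFPT1, its first enzyme, had 3850.3 ± 486 normalized counts in fasting medium and 1749 ± 58.6 in control medium, and UAP1, its last, 5906 ± 556 in fasting medium and 2591 ± 46.8 in control medium (SD, n = 3 each). PGM3, an enzyme between them, rose by 0.68, a call lost with scaling to the total of the listed genes (0.20). In the pentose phosphate pathway 2 of 9 genes are listed and 2 rose, TKT (transketolase) by 0.90 and PGD (6-phosphogluconate dehydrogenase) by 0.74, the second not past the threshold with that scaling (0.26). Of 7 gluconeogenesis genes PCK2, the mitochondrial PEP carboxykinase, rose by 1.75 and PC (pyruvate carboxylase) by 0.93. Among 11 glycogen genes looked up the primer GYG1 (0.63) and the branching enzyme GBE1 (0.66) rose. With scaling to the total, PC (0.46), GYG1 (0.15) and GBE1 (0.18) did not pass.

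At the entry of pyruvate into mitochondria, 3 of 12 genes of the pyruvate dehydrogenase complex and its regulators are listed. Beside this and the counts below, 11.8% of all genes tested are listed, with 49.7% of those higher and 44.6% lower. PDP1, the phosphatase that switches the complex on, rose by 1.01 on the log2 scale (limma, adjusted p = 0.00217). The inhibitory kinases PDK3 and PDK4 fell, PDK3 to 493 ± 119 normalized counts in fasting medium against 916 ± 41.2 in control medium (SD, n = 3 each). PDK4 had 7, 13 and 2 reads in the fasting libraries, against 28, 39 and 39 in the control libraries. All 3 genes were lowest in fasting replicate 3 among the fasting libraries. Without it the log2 changes were 1.17 for PDP1, -0.71 for PDK3 and -1.27 for PDK4. Without control replicate 1 the PDK3 call was lost (limma, adjusted p = 0.0539), and the PDK4 call was lost on omitting fasting replicate 1 or any of the controls (adjusted p = 0.0806 to 0.16). Of 9 genes of the energy sensor AMPK and its upstream kinases, the gamma subunits PRKAG1 (0.69) and PRKAG2 (1.04) rose, and STK11 (LKB1), the kinase that activates AMPK, had a log2 change of -0.56, a call that again held without fasting replicate 3 but was lost without any one of the others (adjusted p = 0.0687 to 0.122). EGLN1, a prolyl hydroxylase that marks hypoxia-inducible factors for destruction, was the only one listed of 9 and fell by 1.14, with the call lost without control replicate 1 or 2 (adjusted p = 0.108 and 0.111). Without fasting replicate 3 the log2 change of EGLN1 was -0.84.

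Over all of these lists 148 genes were looked up and 32 are listed, of which 22 were higher and 9 lower in fasting medium. Without the 6 genes described first, 19 were higher and 6 lower of 26 listed. Beside these counts, 11.8% of the genes tested are listed, and 49.7% of all listed genes were higher and 44.6% lower. The lists were chosen with earlier results of these data known, and nothing particular to them is read from the counts. The median log2 change of the 32 was 0.68, beside 0.53 over all listed genes. Without moderation of the variance, 10 of the 31 calls were lost (limma's linear fit, adjusted p = 0.0531 to 0.318), those of GAPDH, PDK3, PDK4, PDP1, MXD3, PC, GYG1, PRKAG1, STK11 and EGLN1. RLE scaling lost those of PDK4, STK11 and EGLN1 (adjusted p = 0.0734 to 0.158), and scaling to the total lost PDP1 (0.53) and PRKAG1 (0.21) beside the genes named above.

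**Figure D3:**
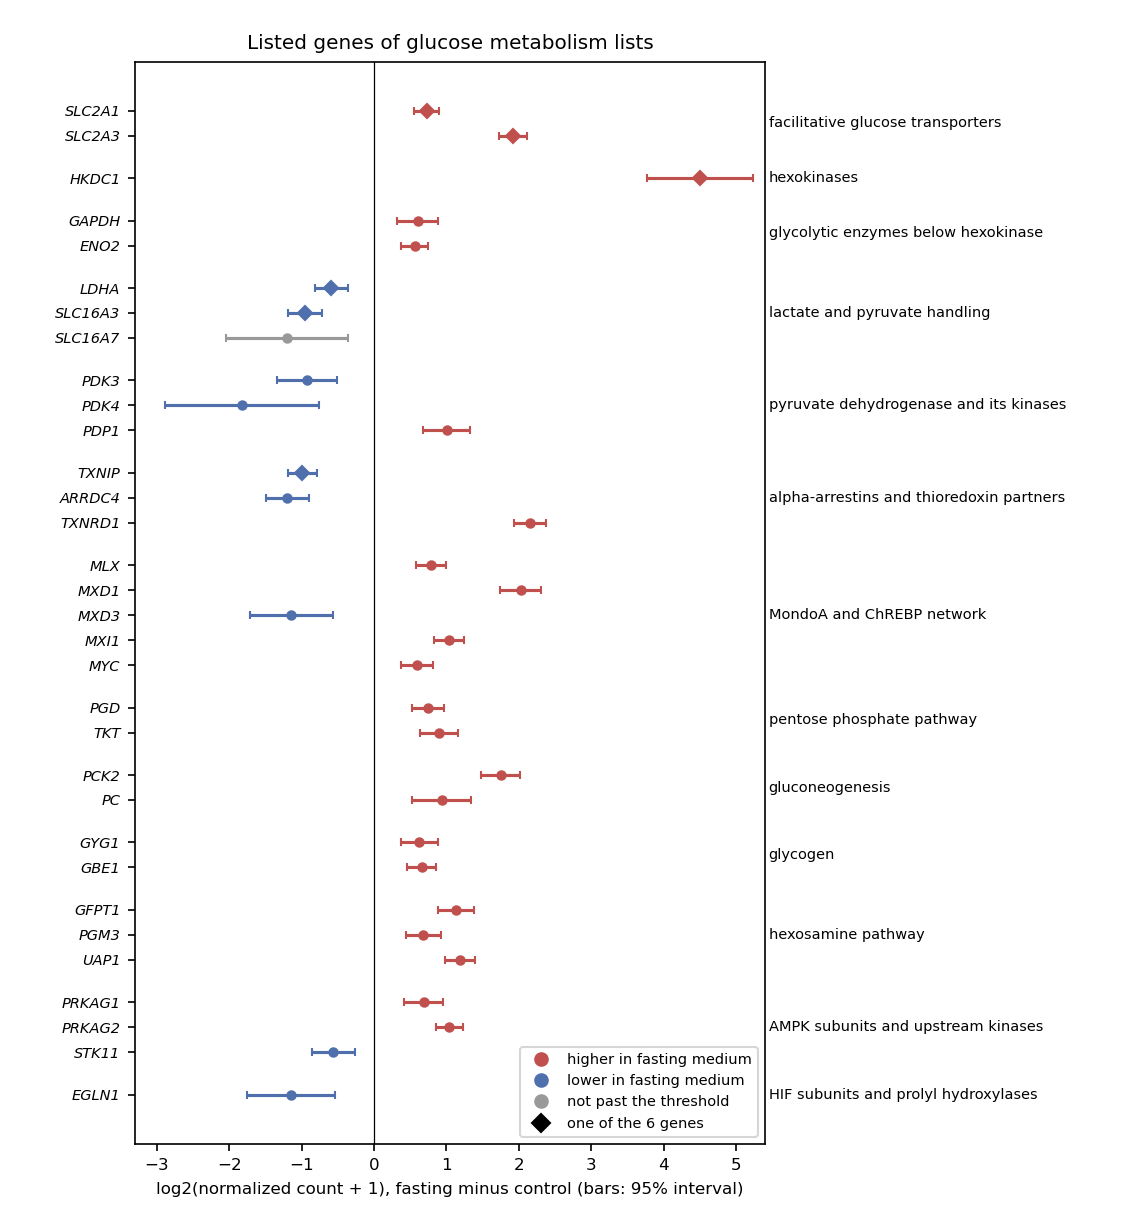
Log2 change (fasting minus control, horizontal axis, with 95% intervals from limma) of the 32 listed genes in lists of glucose metabolism, coloured by whether they passed an adjusted p of 0.05. SLC2A1, SLC2A3 and HKDC1 lie right of 0 and LDHA, SLC16A3 and TXNIP left of it, and HKDC1 lies farthest right (4.50), a place that depends on the pseudocount, since its value is 1.67 at a pseudocount of 10.

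The listed protein-coding genes with the profile nearest to each of the 6 were found by the distance between log2 values, centred on the control mean, over the 6 libraries and 3072 genes. Nearest to SLC2A3 were ARHGEF2 (log2 change 1.98), SLC7A5 (1.88) and WARS1 (1.97), at distances of 0.132 to 0.158. SLC7A5 is the exchanger of large neutral amino acids and WARS1 the tryptophanyl-tRNA synthetase. Nearest to SLC2A1 were VPS4B (0.72), CRY1 (0.72) and EMP1 (0.72), and nearest to TXNIP were H2AZ2, MCM6 (-0.97) and PIK3R3 (-0.94). H2AZ2, which had a mean of 1207 normalized counts in fasting medium and 2417 in control medium, encodes a histone variant, and MCM6 a subunit of the replicative helicase. LDHA lay nearest to TIMM21 (-0.60), DNAAF2 (-0.56) and LAS1L (-0.56), and SLC16A3 to RPS6KA4 (-1.01), TOX2 (-0.95) and RCOR2 (-0.92). HKDC1 lay nearest to OLAH (4.23), which was also at 0 in the control libraries, but at a distance of 0.523 its profile is less well matched than those of the other 5.

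Apart from HKDC1, scaling to the total of the listed genes moved the log2 changes of the 6 genes further than the other alternatives run did. With it SLC2A3 was at 1.44, SLC16A3 at -1.43, TXNIP at -1.46 and LDHA at -1.06, and with RLE scaling they were at 2.12, -0.75, -0.79 and -0.39. The direction of each of the 6 was kept under every alternative that gave a value. Removing the trend with transcript length gave 0.76 for SLC2A1, 1.99 for SLC2A3, -0.83 for LDHA, -0.74 for SLC16A3 and -1.14 for TXNIP.

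**Figure D4:**
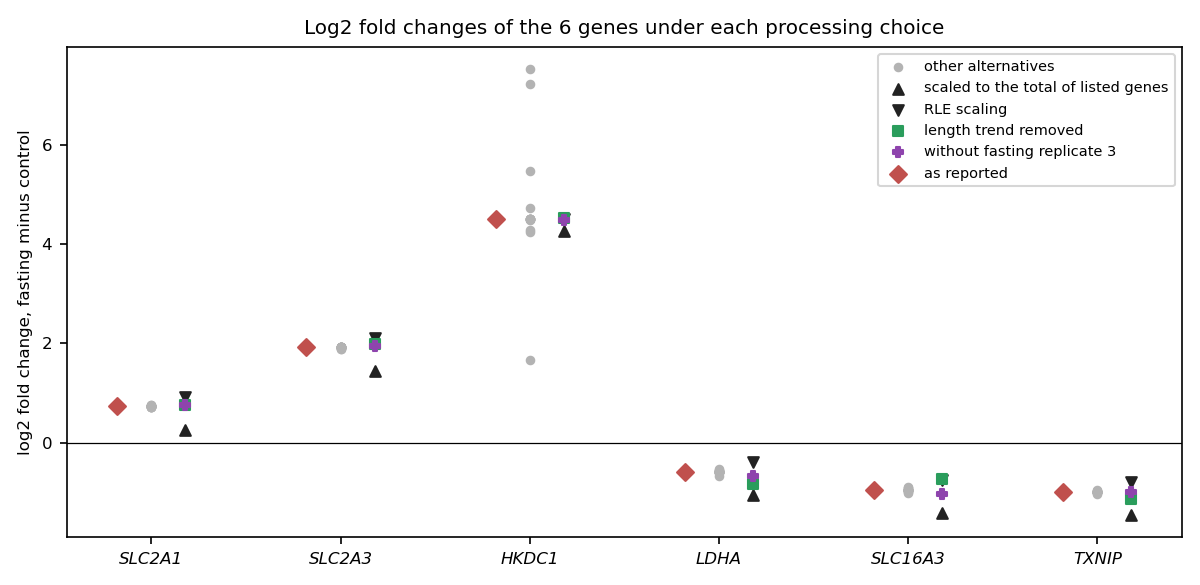
Log2 change (fasting minus control, vertical axis) of each of the 6 genes as reported and under each processing alternative. Black triangles for scaling to the total of the listed genes lie lowest for SLC2A1 (0.25) and TXNIP (-1.46), and the values of HKDC1 spread from 1.67 to 7.53, since its control libraries are at 0.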

How the data were processed

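RNA was sequenced from 3 fasting and 3 control samples, grouped by the treatment label. Libraries were directional, per the labels' protocols. Tools named without a role in the submitters' processing notes are HTSeq 0.6.1, DESeq 1.10.1 and UMI-tools 1.0.0. The sources used here do not give the aligner or build. The deposited sample columns state no unit. From the values, they hold a normalized signal that the authors made by dividing reads by a size factor per library (0.727 to 0.956 in fasting, 1.01 to 1.41 in control). On that scale 100% of values were whole reads within 0.01 read. The authors also deposited a log2 fold change, a p-value and an adjusted p-value per gene. The highest adjusted p is 0.04999, so the table was selected on the outcome. A gene outside it is called not listed, and no value for it was used.

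The main test, limma 3.58.1 (R 4.3.3, trend, empirical Bayes), was run on log2(normalized count + 1), keeping genes whose mean reached 1 in either group, two-sided, adjusted over the 29845 genes that adjusted p, rank and p of the authors imply, with unlisted genes at p = 1. The moderation was estimated on genes selected for their difference. The labels do not say whether samples were separate cultures, so p-values rest on a spread that may be technical. The fit was tested on simulated data with known fold changes. Those data had the same dispersion for every gene, no selection on the outcome and no length trend. Adjustment there was over the listed genes alone, so these features of the real test were not checked. Count tests on recovered reads (edgeR 4.0.16, which called 3359 genes, and DESeq2 1.42.0) were alternatives, with other pseudocounts, filters, scalings, weights, a replicate block, each library left out, and a length trend removed. Transcript lengths and shared words came from GENCODE release 29 (longest coding transcript), promoters from RefSeq. The members and gene lists were chosen with earlier results of these data known. Named genes are the 6 members, listed members of the lists and the 3 nearest profiles of each member. 2 genes of the lists, 1 higher and 1 lower in fasting medium, are not reported here and enter no count of the lists.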

Additional observations from a re-analysis of the deposited data

How the results depend on the processing

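Of 199 values recomputed under alternatives for 10 results, 193 kept their direction and their side of the threshold (for counts, stayed within 1.5 times). Some alternatives could not lose a call. Dropping the filter left these values as they were, and adjustment over the listed genes alone only lowers adjusted p. The genes also come from a table selected by this contrast, so the count is no measure of support. The log2 change of SLC2A1 no longer passed with scaling to the total of the listed genes (0.25). The 3 log2 ratios could not pass 0.05 in this design, so only their direction was compared: 23 of 24 values kept it, and that of LDHA to SLC16A3 (0.37) turned to -0.0903 with the transcript length trend removed. For SLC2A1 to SLC16A3 the direction was fixed in advance whichever library is left out, since neither gene overlaps between the media. With scaling to the total of the listed genes 862 genes were higher and 19 pathway genes passed, against 1745 and 31. Without moderation of the variance, 1981 genes passed, 1134 higher and 847 lower. The cause was not tested. Leaving out 1 library at a time gave 2624 to 3509 genes in all, 1464 to 1762 higher, 1160 to 1747 lower and 25 to 32 pathway genes. HKDC1 has no value with a minimum mean of 100.

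Same-numbered samples did not pair: the correlations of their deviations were 0.0315, 0.0265 and 0.0772. With a replicate block 3293 genes passed, and the 6 genes stayed past the threshold, SLC16A7 too (adjusted p = 0.0451). The best match of fasting replicate 1 was control replicate 1, of replicate 2 control replicate 1 and of replicate 3 control replicate 3. Library quality weights did not reach their convergence tolerance. Among 26 other pathway genes and 8 stress genes, 47 of 679 values lost a call, 5 gained one and 0 changed sign. Depth limits HKDC1, PDK4 and CD14, which rest on under 50 reads per library.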
